A study of Mus musculus with 8 samples.

Results

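The microRNAs miR-143-3p, miR-145a-5p and miR-145a-3p were followed in hearts of male C57/BL6 mice, labelled 8 weeks old, 21 days after surgery. They are the products of the smooth muscle cluster of mir-143 and mir-145a that were chosen by accession, as probe sets MIMAT0000247_st, MIMAT0000157_st and MIMAT0004534_st, and make up 3 of the 1908 mature miRNA probe sets in a table of 3222. The MI group held 4 hearts in which the left anterior descending coronary artery had been tied off to cause a myocardial infarction (MI), numbered 1, 4, 5 and 7, and the sham group held 4 sham-operated hearts, numbered 1 to 4. Both groups carry the suffix nc in their titles, which the labels do not explain. Total RNA of each heart was read on its own Affymetrix miRNA 4.0 array, and the labels name neither the region of the heart that was taken nor the extent of the infarct.

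MicroRNAs are short RNAs that repress messenger RNAs with a matching site. The precursors of miR-143 and miR-145 are cut from a shared primary transcript, and in the mouse gene table both Mir143 and Mir145a lie inside the long non-coding gene Carmn, also called Mir143hg, on chromosome 18. Serum response factor and its coactivator myocardin switch the cluster on, and its products are best known from the smooth muscle of vessel walls and from other mesenchymal cells. There they hold smooth muscle in its contractile state by repressing factors such as Klf4, Klf5 and Elk1, and mice without the cluster have thinner arterial walls. miR-145a-5p is the main product of its precursor, and miR-145a-3p is the arm that is mostly discarded.

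At 21 days after infarction, neither of the bright products of the cluster differed between MI and sham hearts beyond the spread between hearts. miR-143-3p averaged 12.46 ± 0.152 log2 units in MI hearts and 12.64 ± 0.185 log2 units in sham hearts (SD, n = 4 each). miR-145a-5p averaged 13.26 ± 0.162 log2 units in MI hearts and 13.36 ± 0.0656 log2 units in sham hearts (SD, n = 4 each). Both were strongly read in all 8 hearts, while miR-145a-3p stayed at the floor of the scale in all of them. Of the 3 members, 0 passed an adjusted p of 0.05 and 0 had an unadjusted p under 0.05 (limma, and equally an unmoderated linear model). Among all 1908 mature probe sets, 0.524% passed the adjusted threshold (10, all of them higher in MI hearts) and 6.29% had an unadjusted p under 0.05. With so few members, this count is close to what those shares would give.

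**Figure D1:**
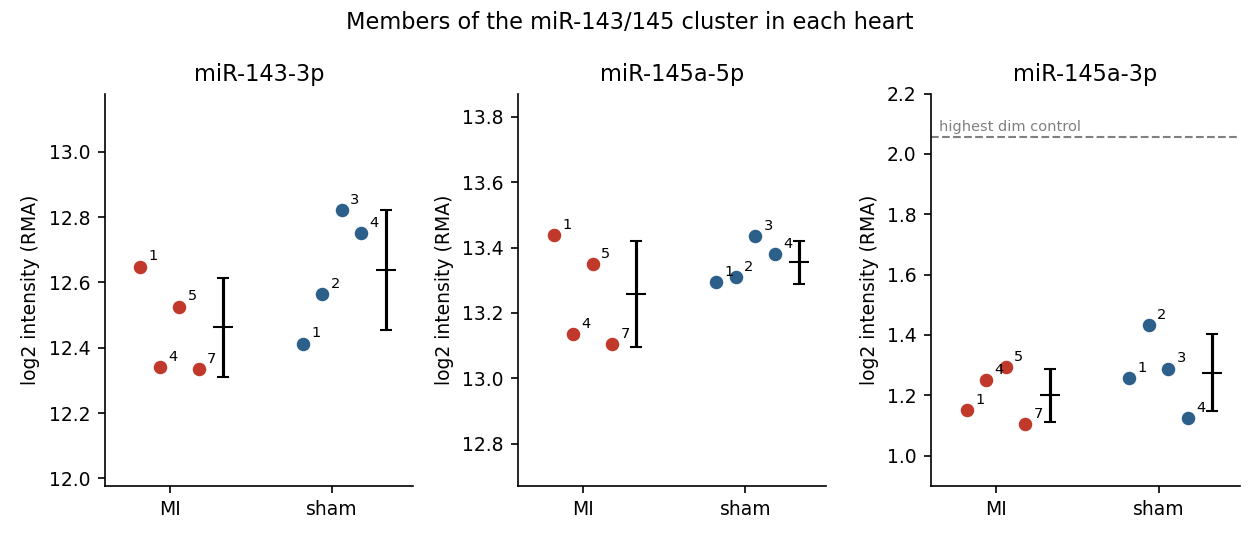
Log2 intensity of each member in each heart, with MI hearts on the left and sham hearts on the right of each panel, points numbered by heart, and the mean ± SD (n = 4) beside them. The groups overlap in all 3 panels, and all 8 values of miR-145a-3p lie under the dashed line, the highest dim spike-in control (2.06). The y axes do not start at 0 and differ in range.

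miR-143-3p, which is known to repress Elk1 in smooth muscle, read 12.65, 12.34, 12.53 and 12.33 log2 units in MI hearts 1, 4, 5 and 7, against 12.41, 12.56, 12.82 and 12.75 log2 units in sham hearts 1 to 4. MI hearts 4 and 7 lay below every sham heart, MI hearts 1 and 5 lay within the sham range, and 0 MI hearts lay above it. The difference, MI minus sham, was -0.18 ± 0.122 log2 units (standard error; limma, adjusted p = 0.897 over 1908 probe sets). As a ratio of MI to sham intensity this is 0.886, with a 95% interval from 0.729 to 1.08. The interval thus allows anything between an intensity 27.1% lower and one 7.67% higher in MI hearts.

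miR-145a-5p, the arm that represses Klf4 and promotes smooth muscle differentiation, read 13.44, 13.14, 13.35 and 13.10 log2 units in MI hearts 1, 4, 5 and 7, against 13.29, 13.31, 13.44 and 13.38 log2 units in sham hearts 1 to 4. The 4 sham hearts lay close together, while the MI hearts lay on both sides of them: hearts 4 and 7 were below every sham heart and heart 1 was marginally above the highest. The difference was -0.098 ± 0.0999 log2 units (standard error; limma, adjusted p = 0.933). The ratio of MI to sham intensity was 0.935, with a 95% interval from 0.797 to 1.10, or from 20.3% lower to 9.61% higher.

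These intervals depend on how arrays are put on a common scale. The 271 mature probe sets that averaged at least 5 log2 units had a median difference of -0.11, so miR-143-3p stood 0.068 log2 units below that median (a relative difference of -0.068) and miR-145a-5p 0.0091 above it. When each array was centred on the median of its brightest 25% of mature probe sets, the median of all mature probe sets moved from -0.0039 to 0.11. The difference of miR-143-3p was then -0.066 (95% interval from -0.53 to 0.39), and that of miR-145a-5p turned to 0.012 (95% interval from -0.41 to 0.44), with limma adjusted p of 0.984 and 0.999. In RNA of heart tissue a change in the number of smooth muscle cells and a change in the miRNA per cell cannot be told apart. Marker miRNAs of smooth muscle, fibroblasts, endothelium, heart muscle, blood cells and epithelium could not be matched to probe sets by name, so the make-up of the hearts was not analysed here.

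**Figure D2:**
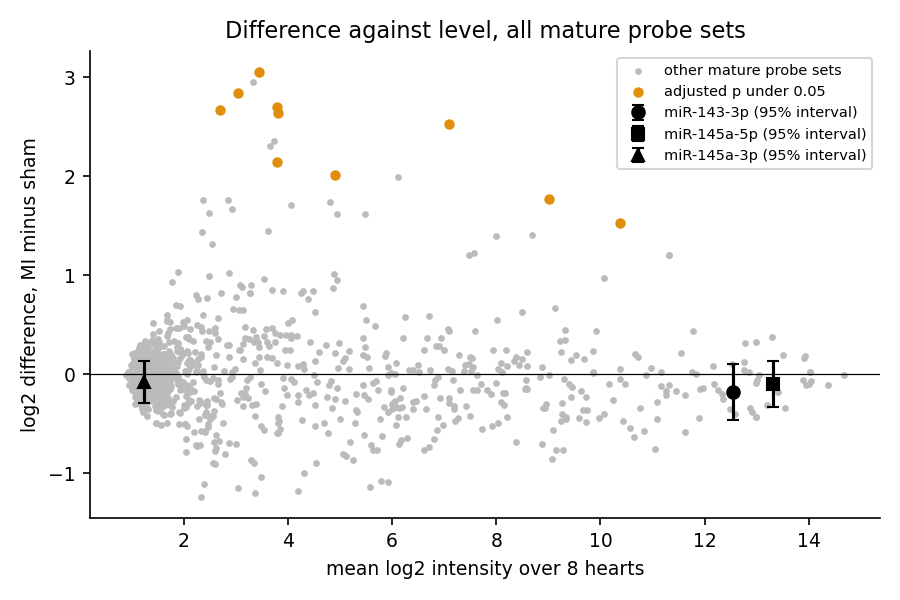
Difference between groups (MI minus sham, log2 units) against the mean log2 intensity over 8 hearts for all 1908 mature probe sets. Grey points are probe sets, orange points the 10 with an adjusted p under 0.05, and black symbols the 3 members with 95% intervals, which all cross 0. The bright members sit at the right end of the axis, slightly below 0. All values are as deposited. Those after centring arrays on bright probe sets, where miR-145a-5p lies above 0, are not drawn.

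By brightness within each array, which ranks probe sets and not amounts of RNA, miR-145a-5p held places 13, 16, 14 and 19 of 1908 in MI hearts 1, 4, 5 and 7 and places 16, 17, 13 and 15 in sham hearts 1 to 4. miR-143-3p held places 28, 28, 29 and 31 in the same MI hearts and places 29, 32, 25 and 30 in sham hearts. Places do not change under any rescaling that keeps the order within an array. In neither member did the places of the groups separate.

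Both bright members varied little from heart to heart. Over the 8 hearts the SD of miR-145a-5p was 0.126 log2 units, and 262 of the 271 probe sets that averaged at least 5 had a larger SD. For miR-143-3p the SD was 0.183, and 249 of the 271 had a larger one. The median SD of those 271 was 0.433. Spread was narrower among the brightest probe sets in general: the other 31 mature probe sets within 1 log2 unit of miR-145a-5p had a median SD of 0.264, and the other 34 within 1 log2 unit of miR-143-3p had a median SD of 0.283. Whether the array compresses differences at this brightness was not tested.

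Among those neighbours in level, differences between groups lay on both sides of 0. Over all mature probe sets, 0.524% passed the adjusted threshold and 6.29% had an unadjusted p under 0.05 (limma). The 34 around miR-143-3p ranged from -0.58 to 0.44 log2 units with a median of -0.12, 23 of them were lower in MI hearts, and 0 passed the adjusted threshold while 5 had an unadjusted p under 0.05 (limma). The 31 around miR-145a-5p ranged from -0.43 to 0.38 with a median of -0.065, 19 of them were lower in MI hearts, and 0 passed the adjusted threshold while 3 had an unadjusted p under 0.05 (limma). Both members lay well inside these ranges.

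miR-145a-3p, the arm usually lost when its precursor is loaded, read 1.15, 1.25, 1.29 and 1.10 log2 units in MI hearts 1, 4, 5 and 7, against 1.26, 1.43, 1.29 and 1.12 log2 units in sham hearts 1 to 4. The groups overlapped, and all 8 values were under 2.06, the highest reading of the 17 spike-in controls that stay near the floor. The readings averaged 1.20 ± 0.0872 in MI hearts and 1.27 ± 0.127 in sham hearts (SD, n = 4 each; difference -0.075, standard error 0.0933, limma, adjusted p = 0.933). Since both groups were below the background level, no fold is given and these readings set only an upper bound on the arm. The probe sets of the arms differ in sequence, so their brightness does not give the ratio of the arms.

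Across hearts, the bright members varied together in the deposited values. Hearts in which miR-145a-5p was high also tended to read high in miR-143-3p: MI hearts 7 and 4 were lowest in both, sham heart 3 and MI heart 1 were the highest in miR-145a-5p, and sham hearts 3 and 4 and MI heart 1 were the highest in miR-143-3p. Pearson's r over the 8 hearts was 0.886 (exact permutation p = 0.00392, adjusted p = 0.0118 over 3 pairs of members) and Spearman's rho was 0.905 (exact permutation p = 0.00456, adjusted p = 0.0137). After the group means were subtracted, r was 0.861 and rho was 0.857 (permutation p = 0.00942 and 0.0107, adjusted p = 0.0283 and 0.0321; approximate, since centred values are not freely exchangeable between groups). Without MI hearts 4 and 7, the 2 arrays farthest from the median of miR-145a-5p, r was 0.812 over 6 arrays (exact permutation p = 0.0569, adjusted p = 0.171): the correlation was nearly as large and no longer passed with fewer arrays. For this correlation no other pair of hearts was left out. After quantile normalization r was 0.702 (exact permutation p = 0.0598, adjusted p = 0.179), and it no longer passed.

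**Figure D3:**
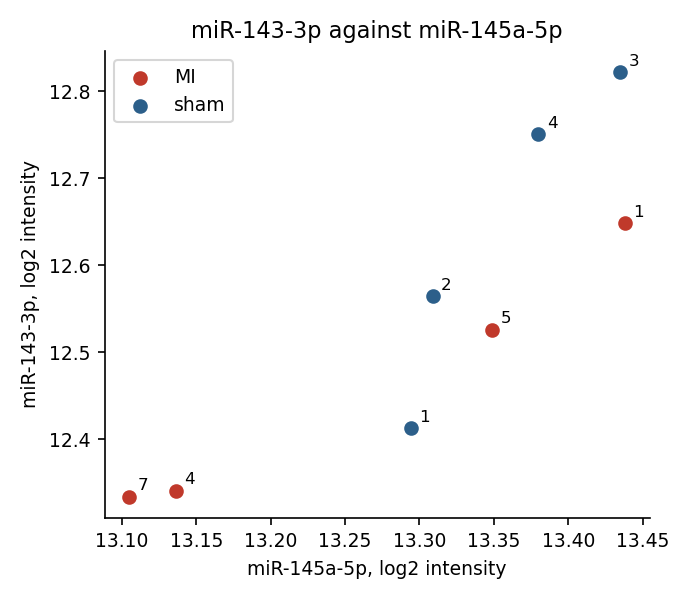
miR-143-3p against miR-145a-5p, both as log2 intensity, 1 point per heart, coloured by group and numbered by heart. The points run from lower left (MI hearts 7 and 4) to upper right (sham heart 3), with r = 0.886 over 8 hearts. Neither axis starts at 0.

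This likeness was not confined to the pair. Of 268 candidates that averaged at least 5 log2 units, each with its own values, miR-143-3p was the 5th most like miR-145a-5p, while miR-145a-5p was the 22nd most like miR-143-3p. The median r of all candidates was 0.275 to miR-145a-5p and 0.403 to miR-143-3p. After centring on bright probe sets the places were 2nd and 3rd with r = 0.945, and after quantile normalization, with 267 candidates, they were 31st and 20th with r = 0.702, against a median r of 0.176 to miR-145a-5p and 0.060 to miR-143-3p. Centring adds the same shift to every probe set of an array, which can by itself change such correlations. The median r of all candidates also rose, to 0.470 for miR-145a-5p and 0.564 for miR-143-3p. How much of the likeness of the pair comes from this shift was not tested.

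The probe set most like both members was MIMAT0025167_st, with r = 0.970 to miR-143-3p and r = 0.909 to miR-145a-5p over the 8 hearts. It averaged 12.3 log2 units in MI hearts and 12.7 log2 units in sham hearts, which is -0.35 ± 0.176 between groups (standard error; limma, adjusted p = 0.799). Second for miR-143-3p was MIMAT0004616_st, a dimmer probe set with r = 0.963, at 5.0 log2 units in MI hearts and 6.14 log2 units in sham hearts, or -1.14 ± 0.568 between groups (standard error; limma, adjusted p = 0.799). Neither accession has a miRNA name in the files. The 5 most like miR-143-3p all had lower means in MI hearts, by differences from -1.14 to -0.26, and so did the 5 most like miR-145a-5p, from -0.43 to -0.18, a list that holds miR-143-3p itself, with 0 of either list past the adjusted threshold (limma; 1 and 0 at an unadjusted p under 0.05). Since they were picked for likeness to members with lower means in MI hearts, over all 8 hearts, their shared sign is largely fixed by the choice and is a description only. The lists share 1 probe set of 5, and they depend on the scaling: after quantile normalization 1 of 5 remained in each, and after centring 2 and 1 of 5.

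Values of the bacterial hybridisation controls, added to every array, were compared with the members, a comparison chosen after the data were seen. Their mean correlated with miR-143-3p at r = 0.484 and rho = 0.357 (exact permutation p = 0.224 and 0.389) and with miR-145a-5p at r = 0.265 and rho = 0.310 (exact permutation p = 0.517 and 0.462) over the 8 hearts. For miR-145a-3p r was -0.190 and rho -0.048 (exact permutation p = 0.657 and 0.935). Over the 3 relations no adjusted p was below 0.657. After the group means were subtracted, r was 0.626 for miR-143-3p, 0.339 for miR-145a-5p and -0.165 for miR-145a-3p (permutation p = 0.0950, 0.408 and 0.695, adjusted p = 0.285, 0.611 and 0.695; approximate). Without sham hearts 2 and 3, whose control values lay farthest from the median, r was 0.315, 0.059 and 0.100 for miR-143-3p, miR-145a-5p and miR-145a-3p. With the control mean as a covariate the differences between groups were -0.19 for miR-143-3p and -0.11 for miR-145a-5p (limma, adjusted p = 0.804 and 0.894).

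The within-array difference between the bright members asks whether they changed unequally, and a shift of a whole array cancels in it. With the deposited values, miR-143-3p minus miR-145a-5p was -0.79, -0.80, -0.82 and -0.77 log2 units in MI hearts 1, 4, 5 and 7, against -0.88, -0.74, -0.61 and -0.63 log2 units in sham hearts 1 to 4. All MI hearts lay inside the sham range, whose lower end is sham heart 1 alone: the other 3 sham hearts all lay above the MI hearts. The mean was -0.79 ± 0.0214 in MI hearts and -0.72 ± 0.124 in sham hearts (SD, n = 4 each), a change of -0.077 with a standard error of 0.0629 (exact two-sided permutation test over 70 assignments, p = 0.314, adjusted p = 0.814 over 3 pairs). The smallest p that 4 against 4 hearts allow is 0.0286. Without sham heart 1 the change was -0.13 (exact permutation test, adjusted p = 0.0857 over 3 pairs). The 3 sham hearts left all lay above the MI hearts. The p before adjustment was thus the smallest that so few hearts allow, and the test could hardly pass after adjustment.

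The tightness of the MI hearts in this difference turned round with the scaling. After quantile normalization the MI hearts read -0.79, -0.63, -0.99 and -0.76 log2 units in the same order, and the sham hearts -0.67, -0.73, -0.79 and -0.76. The SD was then 0.147 in MI hearts and 0.0492 in sham hearts, against 0.0214 in MI hearts and 0.124 in sham hearts as deposited. The difference in spread was not tested. The change between groups was -0.054 after quantile normalization (exact permutation test, p = 0.657, adjusted p = 0.971).

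**Figure D4:**
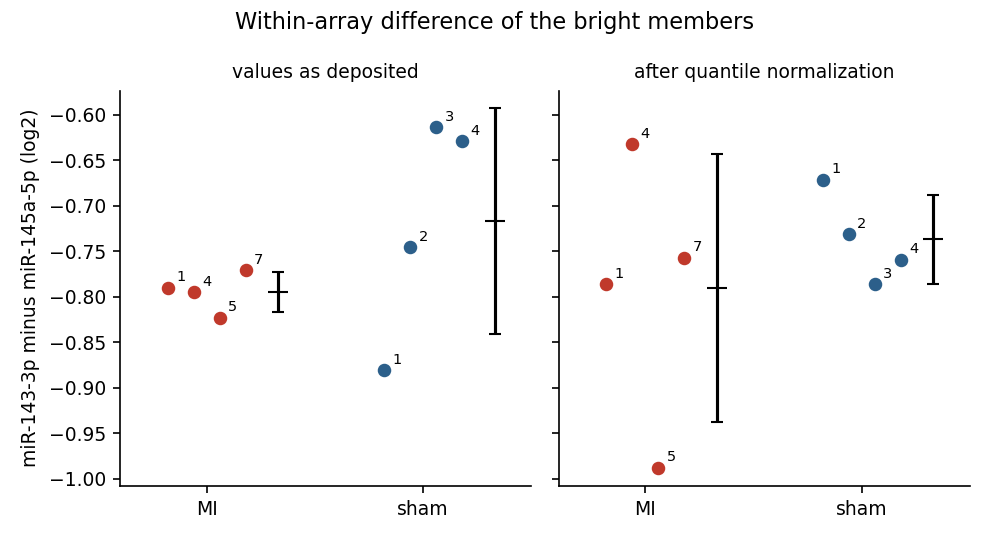
miR-143-3p minus miR-145a-5p within each array (log2 units), as deposited on the left and after quantile normalization on the right, with MI hearts left of sham hearts, points numbered by heart and the mean ± SD (n = 4) beside them. The MI hearts are the tighter group in the left panel (SD 0.0214) and the wider one in the right panel (SD 0.147). The y axis does not start at 0.

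The differences that involve miR-145a-3p rest on an arm that read below background in all 8 hearts. Against miR-145a-5p the change between groups was 0.022 ± 0.117 log2 units (standard error; exact permutation test, p = 0.886, adjusted p = 0.886), and against miR-143-3p it was 0.100 ± 0.153 (standard error; exact permutation test, p = 0.543, adjusted p = 0.814). Over the 8 hearts miR-145a-3p correlated with miR-145a-5p at r = 0.146 and rho = 0.167 (exact permutation p = 0.721 and 0.703) and with miR-143-3p at r = 0.051 and rho = 0.238 (exact permutation p = 0.907 and 0.582), with no adjusted p below 0.703.

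**Figure D5:**
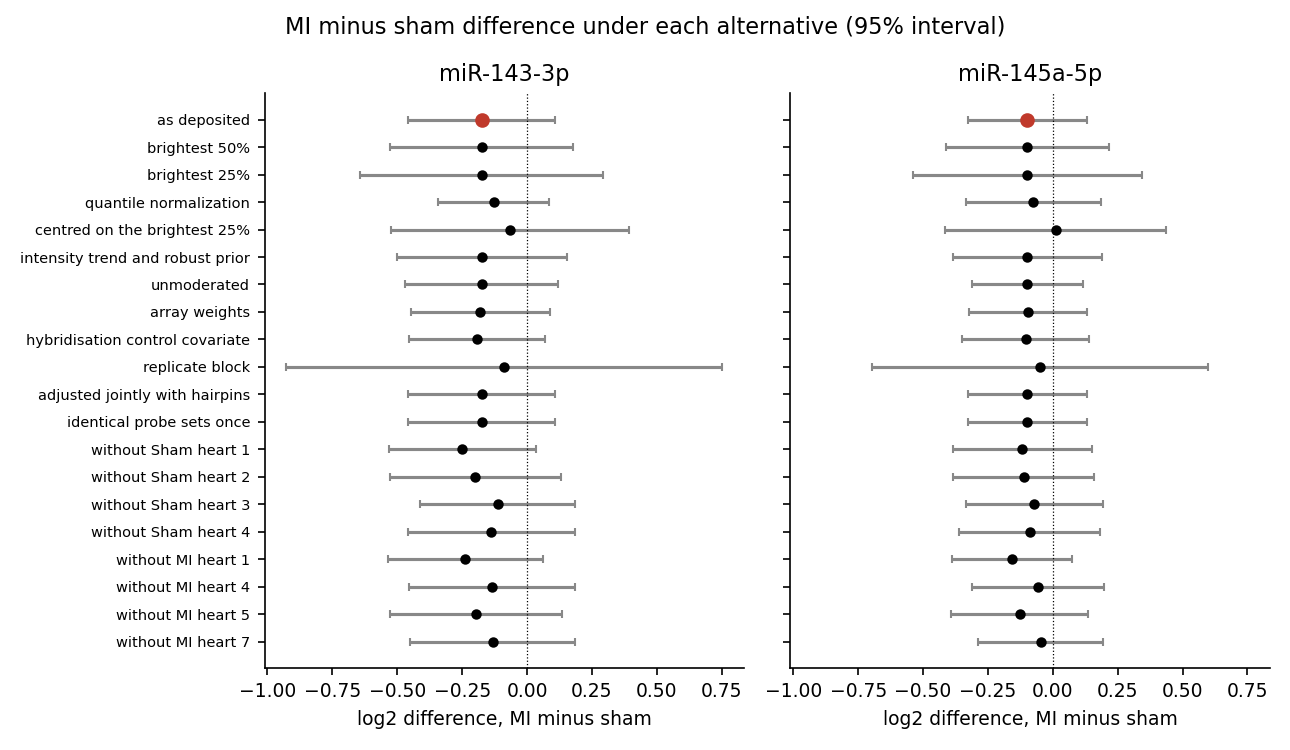
Difference between groups (MI minus sham, log2 units) of miR-143-3p and miR-145a-5p under the deposited values (red, top) and each of 19 alternatives, with 95% intervals. The interval crosses 0 in every row of both panels. miR-143-3p runs from -0.25 to -0.066, and miR-145a-5p from -0.16 to 0.012, where it passes 0 when arrays are centred on the brightest 25%. Rows that change only the probe sets tested, the variance prior or the adjustment keep the deposited difference by construction. The replicate block rests on the numbers 1 and 4 alone, the only ones in both groups. For miR-143-3p, MI heart 1 read above sham heart 1 (12.65 against 12.41). MI heart 4 read below sham heart 4 (12.34 against 12.75).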

How the data were processed

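The authors deposited log2 intensities of 8 arrays made with RMA (background correction, normalization between arrays and summary per probe set), per the submitters' processing notes. Its version, its program and detection calls were not given in the sources used here. Scanner files were not used here, and for arrays the number of hearts limits the precision. The comparison of MI with sham hearts used limma 3.58.1 (functions lmFit and eBayes, R 4.3.3, two-sided tests) over 1908 mature probe sets, with group as the only term and Benjamini-Hochberg adjustment over all of them at 0.05, and no filter on low values. The fit was tested on simulated data. Changes in the within-array differences between members, and correlations over hearts, were tested with exact permutation tests.

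Members and lists were chosen with earlier results of these data known. The text was to cover the members, their partner arm and hairpins, lists of smooth muscle and marker miRNAs, and the 5 probe sets averaging at least 5 log2 units that have the highest Pearson r to each bright member. The files pair no accession with a name, so the partner arm, hairpins and lists were not analysed here. The background level is the highest value of 17 dim spike-in probe sets. Of 22 spike-in probe sets, these are the ones that read under 3 log2 units in every array, and the rest were left out. The names of the 3 members came with the list of accessions that chose them and could not be checked against the files. Precursor genes and their neighbours come from RefSeq's GRCm38.p6 table.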

Additional observations from a re-analysis of the deposited data

How the results depend on the processing

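All 3 members stayed short of the threshold under every alternative run (19 for the bright members, 17 for miR-145a-3p, outside the brightest 50% and 25%). Changing only the probe sets, variance prior or adjustment cannot move a difference. Elsewhere that of miR-143-3p stayed negative. Adjusted p ran from 0.651 (miR-143-3p), 0.836 (miR-145a-5p) and 0.881 (miR-145a-3p) to 0.999 (limma or the unmoderated model). Centring on the brightest 25% turned miR-145a-5p to 0.012 and miR-145a-3p to 0.034. Leaving out each heart gave -0.25 to -0.11, -0.16 to -0.047 and -0.13 to -0.023 for miR-143-3p, miR-145a-5p and miR-145a-3p. The groups share only the numbers 1 and 4, whose hearts' deviations correlated at -0.294 and -0.045. Hearts of unlike number were not compared in this way, so these values cannot show pairing. The replicate block rests on hearts numbered 1 and 4 and gave -0.087, -0.050 and 0.010 (interval -0.93 to 0.75 for miR-143-3p). There 0 mature probe sets passed (76 at an unadjusted p under 0.05, limma).

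The number of mature probe sets called, 10 of 1908 as deposited, was 20 of 954 in the brightest 50% and 22 of 477 in the brightest 25%. Of all 1908 it was 25 after centring, 18 with a robust prior and intensity trend, and 17 with array weights. It was 15 after quantile normalization, 13 with the control covariate, 9 when adjusted jointly with hairpins and 7 in the unmoderated model. Without each heart it was 7 to 17, highest without sham heart 3 and lowest without MI heart 7. The members were in none of these. The change in miR-143-3p minus miR-145a-5p ran from -0.13 to -0.043 without each heart, that in miR-145a-3p minus miR-143-3p from 0.011 to 0.18, and that in miR-145a-3p minus miR-145a-5p from -0.037 to 0.099. The correlation of the bright members was 0.812 without the 2 farthest arrays and 0.702 after quantile normalization. That of miR-145a-5p with miR-145a-3p was -0.0090 centred within groups, -0.53 without the 2 farthest arrays and 0.755 after centring on bright probe sets (exact permutation test, adjusted p = 0.0430), which adds a shared shift to both. That of miR-143-3p with miR-145a-3p was -0.17, -0.41 and 0.650 in the same order, the last with adjusted p = 0.0772 (exact permutation test). The causes were not tested. Low signal limits what can be seen of miR-145a-3p.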
